A study of Mus musculus with 5 samples.

Results

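The results below concern 10 mouse genes of Toll-like receptor (TLR) signalling and nucleic acid sensing, Tlr3, Tlr4, Tlr7, Tlr9, Tlr13, Unc93b1, Slc15a4, Myd88, Irak4 and Irf5. They were chosen by name, and all 10 were found among the 27998 genes of the deposited count matrices. Kidney cells had been profiled by droplet single-cell RNA sequencing in C57BL/6j mice in which pristane, a hydrocarbon oil that provokes a lupus-like disease, had been given to every animal. The 2 groups were saline mice (n = 2) and mice given FMT, a transplant of faecal microbiota whose donors were MRL/MpJ mice (n = 3). No age and no sham transplant from another donor strain is given in the labels, so the comparison is between transplanted material and saline. The title of the series concerns microbial inosine and B cells, and the question asked here is which renal cells carried the sensing genes and whether their levels differed after the transplant.

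Toll-like receptors bind microbial molecules, and those of the endosome also bind the body's own nucleic acids, which is why they are studied in lupus. Tlr3 binds double-stranded RNA, Tlr7 single-stranded RNA, Tlr9 DNA with unmethylated CpG and Tlr13 bacterial ribosomal RNA, while Tlr4 binds lipopolysaccharide at the cell surface. Unc93b1 is the chaperone that carries the endosomal receptors from the endoplasmic reticulum, and Slc15a4 is a transporter of histidine and peptides in the endolysosome that signalling by these receptors needs. Myd88 is the adaptor of all the listed receptors except Tlr3, Irak4 is the kinase it recruits, and Irf5 is a transcription factor that acts after them.

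The 5 libraries held 15333445 to 45309178 UMIs (unique molecular identifiers, each standing for 1 captured RNA molecule). Of 26237 barcodes, 22591 had at least 200 genes and under 50% mitochondrial UMIs and were kept. The labels name renal tubular epithelial cells, and the kept cells included many that carried the marker genes of immune cells. Cells were therefore assigned to 9 gates by panels of 8 marker genes, none of which is among the 10 genes described, and 16327 cells were gated. The gates held 1739 B cells (Ms4a1), 1894 T cells (Cd3e), 30 plasmacytoid cells (Siglech), 665 Ear2 monocytes, 66 F13a1 monocytes, 46 C1qa macrophages, 383 neutrophils (S100a8), 10555 proximal tubule cells (Lrp2 or Slc34a1) and 949 distal tubule cells (Slc12a1 or Slc12a3). The library of saline mouse 1 stood apart: 450 Ear2 monocytes made up 8.59% of its kept cells (1.80% in saline mouse 2 and 0.665% to 1.27% in FMT mice), and the summed level of the 8 neutrophil panel genes in these monocytes was 6346 CPM (UMIs per 1000000 UMIs of the gate), with 8 of 8 genes detected, against 125 to 342 in the other libraries. Between pairs of libraries, 65 barcodes were shared in all.

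A level is given below in CPM of the same gate in a library, and its mean ± SD is taken over all 5 libraries unless a group is named. The plasmacytoid, F13a1 and C1qa gates held 3 to 20 cells per library, and their levels rest on few UMIs. Markers of other cell types were also found in the gates. Slc34a1 of proximal tubule cells had a UMI in 16.6% of B cells, 17.2% of T cells and 21.1% of Ear2 monocytes. S100a8 of neutrophils had one in 5.64% of B cells and 5.81% of proximal tubule cells. How much of a low level of a member came from RNA carried over between cells was not tested. Exact binomial intervals (95%) of shares of cells with a UMI, and the limits set by a count of 0, cover counting error only.

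**Figure D1:**
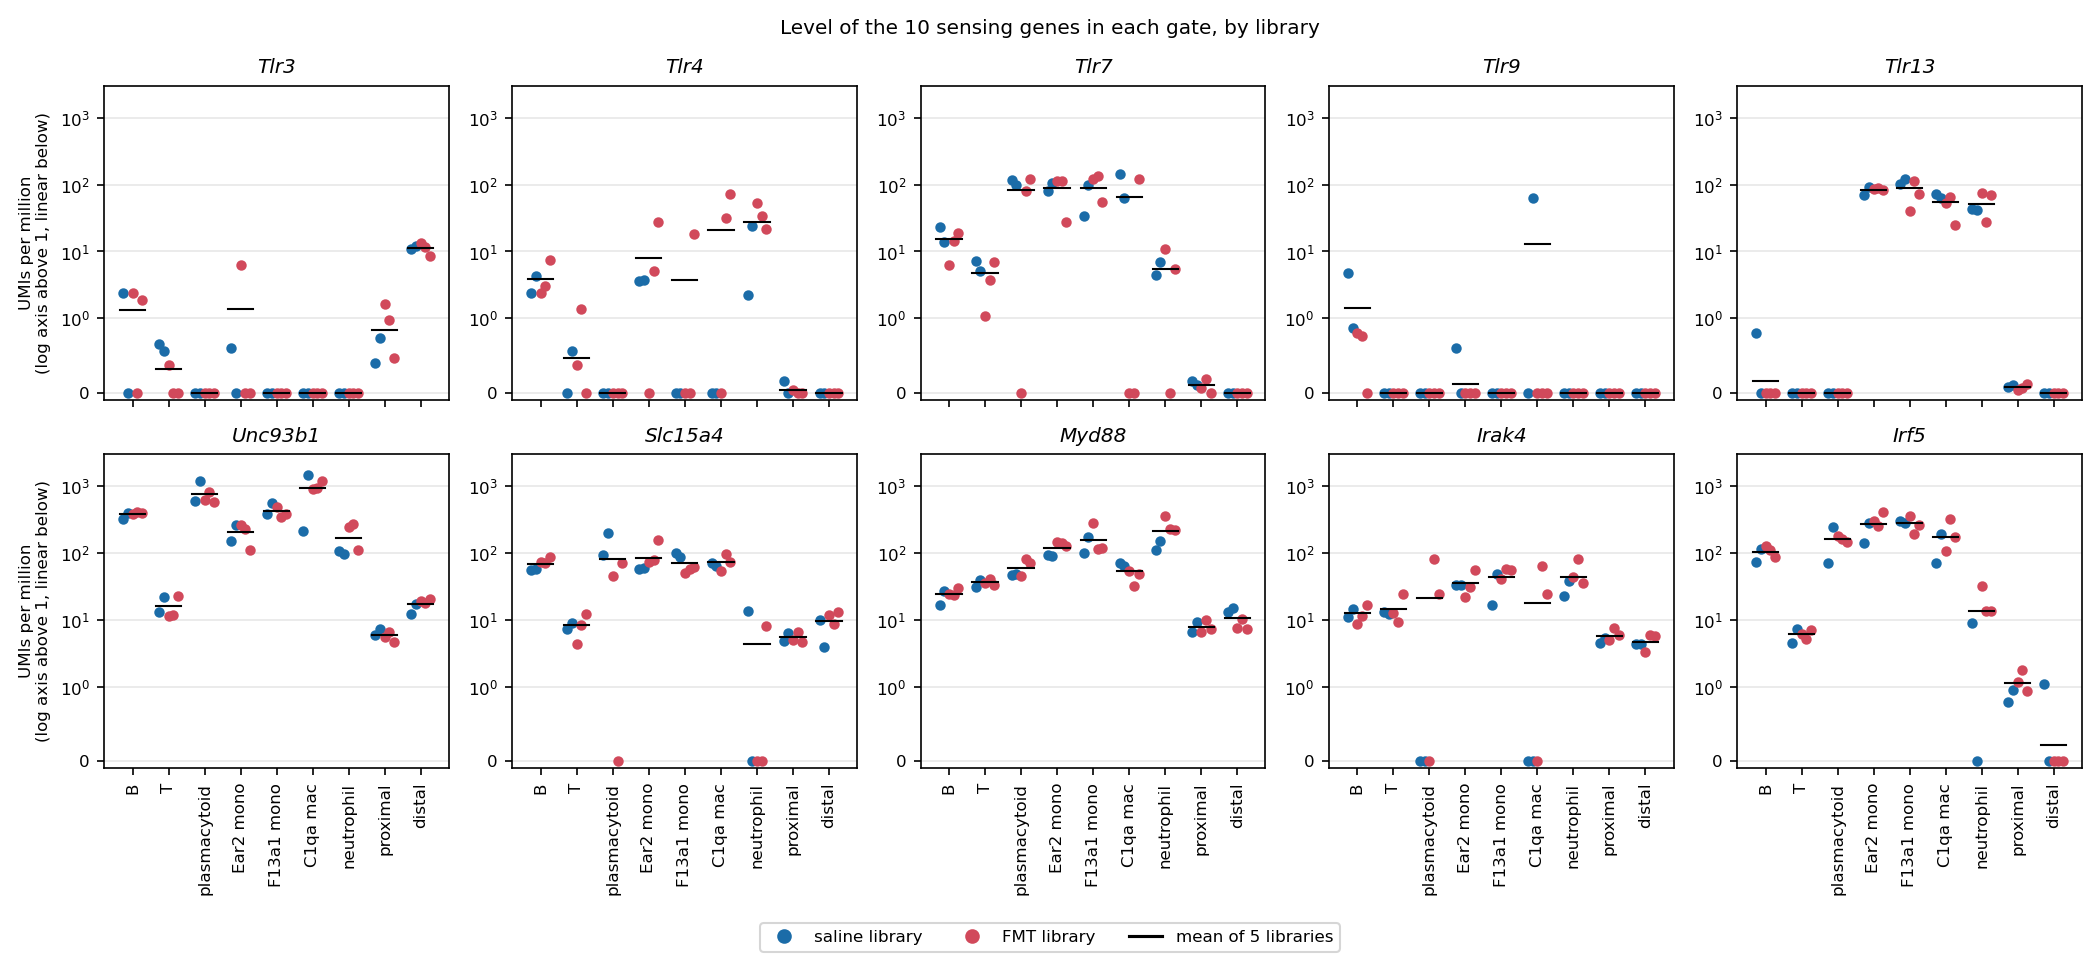
Level of each of the 10 genes (vertical axis, CPM, logarithmic above 1 and linear below) in the 9 gates (horizontal axis). Points are libraries, blue for saline and red for FMT, and black lines are means of 5 libraries. Tlr7, Tlr13 and Irf5 are high in the mononuclear gates, Tlr3 is highest in distal tubule cells, and Tlr9 is at 0 in 6 of the 9 gates.

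Among the receptors, Tlr7 was carried mainly by mononuclear phagocytes and plasmacytoid cells. In Ear2 monocytes its level was 79.6 and 108 CPM in saline mice 1 and 2 and 114, 114 and 28.0 CPM in FMT mice 1 to 3, the last from 2 UMIs. In F13a1 monocytes it was 33.6 and 98.3 CPM in saline mice and 122, 134 and 55.3 CPM in FMT mice. The treatment groups overlapped in both gates. Means were 88.7 ± 43.1 CPM in F13a1 monocytes, 88.6 ± 36.7 in Ear2 monocytes, 83.1 ± 49.0 in plasmacytoid cells and 66.0 ± 67.0 in C1qa macrophages, and the ranges of these 4 gates overlapped. B cells followed with 15.3 ± 6.24 CPM, then neutrophils with 5.52 ± 3.91 and T cells with 4.81 ± 2.52. Proximal tubule cells had 0.102 ± 0.0728 CPM, below T cells in 5 of 5 libraries without overlap. No Tlr7 UMI was found in 949 distal tubule cells, which allows a level of up to 0.515 CPM.

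The share of cells with a Tlr7 UMI gave the same order for Ear2 monocytes, B cells, T cells and proximal tubule cells. It was 25.6% in Ear2 monocytes (interval 22.3 to 29.1), 4.37% in B cells (3.46 to 5.44), 1.69% in T cells (1.16 to 2.38) and 0.0663% in proximal tubule cells (0.0267 to 0.137). Cells with at least 2000 UMIs were then thinned to 2000, and cells with fewer were left out. The shares became 15.6% of 549 Ear2 monocytes, 3.16% of 1522 B cells, 0.912% of 1755 T cells and 0.0248% of 9524 proximal tubule cells. T cells had a median of 4215 UMIs and Ear2 monocytes of 3206, so the deeper cells had the lower share. Neutrophils, above T cells by mean CPM, had a share of 1.57% (0.577 to 3.38), below the 1.69% of T cells. After thinning it was 1.18%, above the 0.912% of T cells.

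Tlr13 was detected mainly in the myeloid gates. In Ear2 monocytes it was 71.3 and 92.9 CPM in saline mice and 85.1, 88.2 and 84.0 CPM in FMT mice, a narrow spread. The mean was 90.6 ± 33.6 CPM in F13a1 monocytes, 84.3 ± 8.07 in Ear2 monocytes, 55.7 ± 18.5 in C1qa macrophages and 51.4 ± 20.6 in neutrophils, with overlapping ranges between neighbours. The next gate, B cells, had 1 UMI in 1739 cells and a mean of 0.160 CPM. No UMI was found in T cells (limit 0.342 CPM), distal tubule cells (limit 0.515 CPM) or plasmacytoid cells (limit 21.5 CPM, since only 30 cells were gated). Tlr13 was therefore detected in neutrophils at 5 of 5 libraries while Tlr7 there was at 0 to 10.8 CPM.

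Tlr3 was instead highest in distal tubule cells, at 10.9 and 12 CPM in saline mice and 13.3, 11.7 and 8.70 CPM in FMT mice. In proximal tubule cells the saline mice had 0.393 and 0.737 CPM and the FMT mice 1.64, 0.973 and 0.472 CPM. Distal exceeded proximal tubule cells in every library with no overlap of ranges. The share of cells with a Tlr3 UMI was 6.74% in distal (interval 5.23 to 8.53) and 0.739% in proximal tubule cells (0.585 to 0.921), at medians of 4989 and 5633 UMIs per cell. B cells held 7, T cells 3 and Ear2 monocytes 3 Tlr3 UMIs, and F13a1 monocytes, plasmacytoid cells, neutrophils and C1qa macrophages had none. Among cells left out of every gate, 236 led by the plasma cell panel held 24 Tlr3 UMIs, of 250 in all kept cells.

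Tlr4 and Tlr9 were sparse. Tlr4 was highest in neutrophils, at 2.25 and 24.2 CPM in saline mice and 54.0, 34.0 and 21.6 CPM in FMT mice, which overlapped. Its level in C1qa macrophages was 21.2 ± 32.5 CPM, from 4 UMIs in 2 of 5 libraries. Ear2 monocytes had 8.09 ± 11.3 CPM from 10 UMIs, B cells 3.93 ± 2.14 from 19 and T cells 0.463 ± 0.572 from 5, F13a1 monocytes and proximal tubule cells held 3 Tlr4 UMIs each, and no Tlr4 UMI was found in distal tubule or plasmacytoid cells. Tlr9 gave 19 UMIs in all 22591 kept cells, 9 of them in B cells and 0 in plasmacytoid cells, where a count of 0 allows up to 21.5 CPM. Saline mice 1 and 2 had 6 and 1 Tlr9 UMIs in B cells, and FMT mice 1 to 3 had 1, 1 and 0. Tlr9 did not pass the low count filter in any comparison. With no filter, edgeR called it higher in B cells, with 9 UMIs, than in T cells, with 0 (adjusted p = 0.0411), at least 4.78-fold against a floor of 3 counts over the T cell gate, and its log2 difference of FMT over saline in B cells was −2.01 ± 1.24 (edgeR adjusted p = 0.845).

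Promoter sequence is shown for 3 of the genes whose levels set the gates apart, Tlr13 and Irf5, both high in monocytes, and Myd88, highest in neutrophils. The windows were cut from the 250 bases before the gene's RefSeq start and stop before the first base annotated as an exon. The Irf5 window kept all 250 bases and ends at that start. Those of Tlr13 (179 bases) and Myd88 (227 bases) end short of it, so positions from a window's end are not distances to the RefSeq start. All were read from RefSeq promoters of build GRCm38.p6, a table in which 7 of the 10 genes were found. Capitals mark an ETS core (GAGGAA, either strand) or an interferon regulatory factor element (AANNGAAA, either strand). The Tlr13 window (chrX:106143025-106143203, plus strand) and the Irf5 window (chr6:29526375-29526624, plus strand) lie upstream of the annotated genes, and the Myd88 window (chr9:119340042-119340268, minus strand) lies inside the annotated Myd88 gene, upstream of a shorter transcript.
Tlr13: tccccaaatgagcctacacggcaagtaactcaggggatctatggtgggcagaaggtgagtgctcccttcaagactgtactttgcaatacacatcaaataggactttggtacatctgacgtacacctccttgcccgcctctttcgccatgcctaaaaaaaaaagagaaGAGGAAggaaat
Irf5: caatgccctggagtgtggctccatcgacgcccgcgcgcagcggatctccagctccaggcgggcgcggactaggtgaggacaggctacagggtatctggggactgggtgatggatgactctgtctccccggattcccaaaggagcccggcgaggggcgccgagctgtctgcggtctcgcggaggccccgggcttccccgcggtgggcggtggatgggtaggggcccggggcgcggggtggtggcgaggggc
Myd88: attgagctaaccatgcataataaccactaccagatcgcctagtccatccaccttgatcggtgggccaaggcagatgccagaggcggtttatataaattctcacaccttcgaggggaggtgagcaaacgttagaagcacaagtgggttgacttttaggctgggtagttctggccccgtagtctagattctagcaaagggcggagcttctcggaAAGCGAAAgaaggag
Tlr13 held 1 ETS core that begins 12 bases before the window's end, Myd88 1 interferon regulatory factor element that begins 15 bases before its end, and Irf5 neither. Irf5 and Myd88 each held 1 Sp1 box (GGGCGG, either strand), printed in small letters. Of 32851 promoters cut to 250 bases before the start, 23.3% held the ETS core, 21.3% the interferon regulatory factor element and 32.7% the Sp1 box, so each match is common, and no binding was measured.

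Of the trafficking genes, Unc93b1 was the member with the most UMIs, 6037 in kept cells. It was 215 and 1470 CPM in C1qa macrophages of saline mice 1 and 2, and 917, 935 and 1204 CPM in those of FMT mice. The low value came from 3 UMIs in the 7 C1qa macrophages of saline mouse 1, in which the summed mononuclear panel was 16200 CPM against 3451 to 6381 in the other libraries. Plasmacytoid cells had 759 ± 253 CPM, above the 429 ± 85.2 of F13a1 monocytes in 5 of 5 libraries without overlap. B cells had 323 and 397 CPM in saline mice and 389, 414 and 395 CPM in FMT mice, a mean of 384 ± 35.1. Ear2 monocytes followed with 204 ± 68.0 and neutrophils with 167 ± 85.5, and the distal tubule, T cell and proximal tubule gates had 17.2 ± 3.16, 16.1 ± 5.71 and 5.94 ± 0.929 CPM. At least 1 Unc93b1 UMI was found in 64.8% of B cells (interval 62.5 to 67.1) and in 6.44% of T cells (5.38 to 7.64), and the thinned shares were 52.8% and 2.96%.

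Slc15a4 was at a like level in the gates that carried Tlr7, with 84.4 ± 39.8 CPM in Ear2 monocytes, 81.3 ± 73.3 in plasmacytoid cells, 72.0 ± 15.8 in C1qa macrophages, 71.4 ± 21.2 in F13a1 monocytes and 68.8 ± 12.3 in B cells, and neighbouring ranges overlapped. The other gates were lower, led by distal tubule cells with 9.43 ± 3.52 CPM, and B cells exceeded them without overlap. Neutrophils, at 4.31 ± 6.20 CPM, had no Slc15a4 UMI in 3 of 5 libraries.

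UMIs of Myd88 and Irak4 were found in every gate. Myd88 was highest in neutrophils, at 112 and 149 CPM in saline mice and 356, 231 and 221 CPM in FMT mice. F13a1 monocytes had 158 ± 76.2 and Ear2 monocytes 119 ± 26.1 CPM, and the Ear2 range lay above the 58.7 ± 16.7 of plasmacytoid cells. C1qa macrophages had 54.2 ± 15.1, T cells 36.1 ± 4.26, B cells 24.4 ± 4.89, distal tubule cells 10.6 ± 3.42 and proximal tubule cells 7.89 ± 1.58 CPM. Irak4 ranged from 44.1 ± 22.3 in neutrophils to 4.73 ± 1.09 in distal tubule cells, and only the step from B cells (12.6 ± 3.19) to proximal tubule cells (5.68 ± 1.15) was free of overlap between neighbours. Myd88 overlaps annotated Slc22a14 on its own strand and Acaa1a on the opposite strand, and Irak4, Irf5 and Slc15a4 overlap genes on the opposite strand (Twf1, Tnpo3 and Glt1d1). No source used here gives whether the counting used strand, so UMIs of such partners could be mixed in.

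Irf5 separated the monocytes from the neutrophils. Its level was 303 and 283 CPM in F13a1 monocytes of saline mice and 357, 191 and 258 CPM in those of FMT mice. Ear2 monocytes had 143 and 279 CPM in saline mice and 299, 249 and 406 CPM in FMT mice, so that saline mouse 1, with 450 of these cells, was the lowest. C1qa macrophages had 173 ± 96.4, plasmacytoid cells 160 ± 63.5 and B cells 103 ± 21.3 CPM. Neutrophils had 13.7 ± 11.8 CPM, below B cells in 5 of 5 libraries without overlap, then T cells with 6.03 ± 1.18 and proximal tubule cells with 1.12 ± 0.384. In distal tubule cells a single Irf5 UMI was found.

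The genes most alike in pattern were named by Pearson correlation of log2(CPM + 1) over the 9 gate means among 9602 genes, as a description, since all points share the same 5 libraries. For Tlr7 these were Irf5 (r = 0.978), Abi3 (0.974) and Tcirg1 (0.967). For Tlr13 they were Klra2 (0.998), Igsf6 (0.993) and Lyz2 (0.996), the last a gene of the gating panel. For Tlr3 they were Lurap1 (0.976), Atp6v1b1 (0.975) and Shisa4 (0.962), and none is named for Tlr9, whose 19 UMIs give no pattern.

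Since the members took no part in gating, gates of the same mice were compared with the edgeR quasi-likelihood F test, with the mouse as a block and p-values adjusted over all genes tested (Benjamini-Hochberg). A gene was called at an adjusted p under 0.05. The log2 fold changes of these fits are after TMM scaling, by which edgeR adjusts the summed counts to each other. They can therefore differ from the ratio of the CPM levels, which are not scaled in this way. Members with too few UMIs did not pass edgeR's low count filter and were not tested. All 5 libraries entered each of these comparisons, from gates with at least 3 cells, a minimum set for the small gates after cell numbers had been seen.

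Ear2 and F13a1 monocytes differed in the chaperone and not detectably in the receptors. Of 5 members tested, Unc93b1 was called, lower in Ear2 monocytes by a log2 fold change of −1.03 ± 0.19 (SE, edgeR adjusted p = 0.000485). Of all genes tested in this comparison, 29.6% were called, 15.3% as higher and 14.3% as lower. The log2 difference was 0.06 for Tlr7 (edgeR adjusted p = 0.907, ±2 SE from −0.54 to 0.67), 0.00 for Tlr13 (adjusted p = 0.998, −0.60 to 0.60) and −0.03 for Irf5 (adjusted p = 0.938, −0.51 to 0.45), so differences of up to about these bounds could not be seen. Myd88 differed by −0.42 ± 0.27 (adjusted p = 0.269). Of 20 pathway genes tested, 4 were higher and 4 lower in Ear2 monocytes. Those higher were Tnip1 (log2 2.61 ± 0.44) and Nfkbia (1.20 ± 0.21), both inhibitors of NF-κB signalling, and the NF-κB subunits Rel (2.03 ± 0.36) and Nfkb1 (0.94 ± 0.25). Those lower were Ly86, the partner of the receptor Cd180 (−1.86 ± 0.28), Cd14, a co-receptor for lipopolysaccharide (−1.40 ± 0.38), Rnaseh2c (−0.91 ± 0.25) and Hsp90b1, a chaperone of TLRs (−0.82 ± 0.19). The median over the 20 genes was −0.19, against 0.01 over all genes.

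C1qa macrophages had more Unc93b1 than F13a1 monocytes, by 1.44 ± 0.29 on the log2 scale (edgeR adjusted p = 0.000643), while Irf5, the other member tested, differed by −0.29 ± 0.41 (adjusted p = 0.618). In this comparison 34.4% of genes were called, 15.5% as higher and 18.9% as lower. The Unc93b1 call was lost when genes with few UMIs were also fitted, at 0.77 ± 0.34 (adjusted p = 0.228), and in the same fit edgeR called Myd88, lower in C1qa macrophages by −1.88 ± 0.62 (adjusted p = 0.0478). Of 9 pathway genes tested, Cd14 (2.78 ± 0.29), Ly86 (1.25 ± 0.30) and the lysosomal ribonuclease Rnaset2a (1.24 ± 0.39) were higher and Samhd1, which degrades deoxynucleotides, was lower (−2.09 ± 0.40).

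Neutrophils differed from F13a1 monocytes in all 3 members tested, where 70.6% of all genes were called, 34.5% as higher and 36.1% as lower. Irf5 was lower by a log2 fold change of −4.05 ± 0.38 (edgeR adjusted p = 5.39e-08) and Unc93b1 by −1.01 ± 0.25 (adjusted p = 0.00173), whereas Myd88 was higher by 0.94 ± 0.24 (adjusted p = 0.0023). After TMM scaling, neutrophils thus carried more adaptor message and less of the chaperone and the transcription factor. Without that scaling, mean Myd88 was 214 ± 93.8 CPM in neutrophils and 158 ± 76.2 CPM in F13a1 monocytes. How much of the called Myd88 difference came from the scaling was not tested. For Myd88 the ranges overlapped, and neutrophils were higher in 4 of 5 libraries. A Myd88 UMI was found in 43.86% of neutrophils and 54.55% of F13a1 monocytes, at medians of 2513 and 6418 UMIs per cell. After thinning to 2000 UMIs, which left out cells with fewer, the shares were 35.21% of 261 neutrophils and 25.88% of 63 F13a1 monocytes. Of 16 pathway genes tested, 7 were lower, among them Pld4, an endolysosomal nuclease (−7.98 ± 0.42), the transcription factor Irf8 (−5.17 ± 0.42) and Hsp90b1 (−2.33 ± 0.24). Ly86 was also lower, with 174 UMIs in F13a1 monocytes and 0 in neutrophils, at least 172-fold lower against a floor of 3 counts over the gate. The 2 that were higher were Nfkbia (0.92 ± 0.24) and Cd14 (0.78 ± 0.23).

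**Figure D2:**
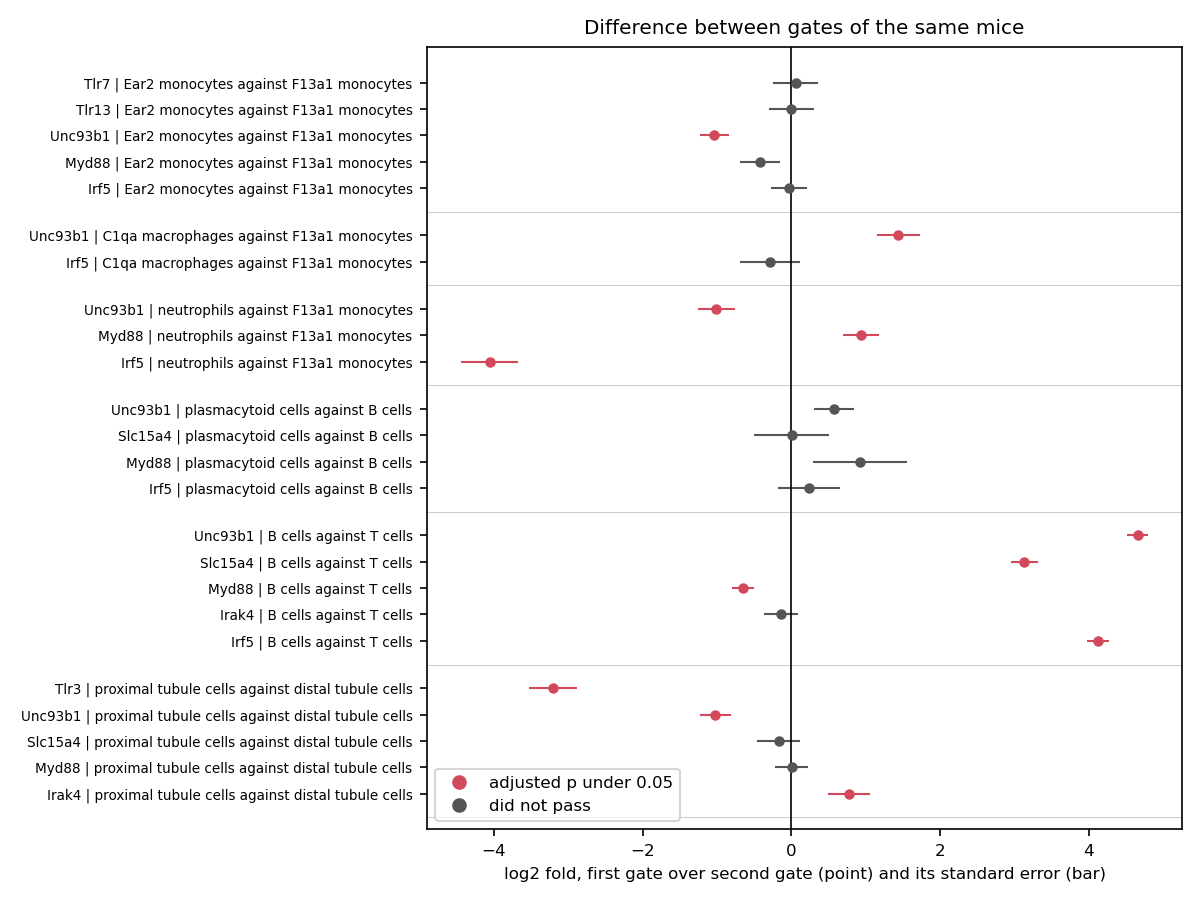
Log2 fold change of each tested gene between gates of the same mice (horizontal axis, point with its standard error as a bar), listed by gene and pair of gates. Red points passed an adjusted p under 0.05. Irf5 lies at −4.05 for neutrophils against F13a1 monocytes and at 4.13 for B cells against T cells, and Tlr3 lies at −3.20 for proximal against distal tubule cells.

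B cells carried the endosomal trafficking genes and Irf5 at far higher levels than T cells. Unc93b1 was higher by 4.66 ± 0.14 on the log2 scale (edgeR adjusted p = 1.11e-14), Irf5 by 4.13 ± 0.15 (adjusted p = 1.43e-13) and Slc15a4 by 3.13 ± 0.18 (adjusted p = 1.06e-10). Myd88 was lower in B cells, by −0.65 ± 0.15 (adjusted p = 0.00154), and Irak4 differed by −0.14 ± 0.23 (adjusted p = 0.667). In this comparison 44.9% of genes were called, 21.5% as higher and 23.4% as lower, and the median log2 difference was 3.13 over the 5 members tested against 0.00 over all genes. Of 48 pathway genes tested, 19 were higher and 12 lower in B cells. Cd180, a TLR-like receptor of B cells, had 325 UMIs in B cells and 0 in T cells, at least 173-fold higher against a floor of 3 counts. Ly86 (8.07 ± 0.20), Pld4 (4.91 ± 0.20) and Irf8 (4.69 ± 0.21) were higher too. The kinase Ikbke (−3.35 ± 0.22), the RNA sensor Ifih1 (−2.58 ± 0.41), the NF-κB inhibitor Tnfaip3 (−1.97 ± 0.24) and Rnaset2b (−1.64 ± 0.10) were lower.

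Plasmacytoid cells were not called apart from B cells in any of 4 members tested with edgeR, where 20.8% of genes were called, 7.84% as higher and 12.9% as lower. Unc93b1 differed by 0.58 ± 0.27 (edgeR adjusted p = 0.12, the only member with an unadjusted p under 0.05), Myd88 by 0.92 ± 0.63 (adjusted p = 0.337), Irf5 by 0.24 ± 0.41 (adjusted p = 0.76) and Slc15a4 by 0.01 ± 0.51 (adjusted p = 0.996). DESeq2 also called 0. In CPM, without TMM scaling, Unc93b1 was 575.5 to 1180 in plasmacytoid cells and 323.3 to 414.3 in B cells, without overlap. Myd88 was 44.65 to 81.23 CPM, from 8 UMIs, and 16.76 to 29.93 CPM, also without overlap. The ranges of Irf5 and Slc15a4 overlapped. How many of all genes had no overlap between these gates was not counted. Unc93b1 was called, at 0.63 to 0.68 on the log2 scale, with any of the 3 other ways of gating cells that were tried. With no filter on low counts it was 0.06 ± 0.31 (adjusted p = 0.913), and Irf5 (−0.28) and Slc15a4 (−0.49) were then below 0. Without the doublet rule, Myd88 (1.42, adjusted p = 0.0257) and Tlr7 (2.45, adjusted p = 0.000105) were called as well. The same cells differed in other pathway genes, of which 6 of 28 were higher and 3 lower in plasmacytoid cells. Pld4 (3.49 ± 0.28), Irf8 (3.10 ± 0.25), Irf7, the factor behind their interferon production (2.71 ± 0.29), and Rnaset2b (2.47 ± 0.30) were higher, and Samhd1 (−1.74 ± 0.39), Nfkbia (−1.41 ± 0.33) and Rnaseh2c (−1.30 ± 0.49) were lower.

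Within the tubule, Tlr3 was lower in proximal than in distal cells by a log2 fold change of −3.20 ± 0.32 (edgeR adjusted p = 3.08e-09), and Unc93b1 by −1.02 ± 0.21 (adjusted p = 0.000136). The distal gate consisted mostly of Slc12a3 cells, with a UMI of Slc12a3 in 89.25% and of Slc12a1 in 11.7% of its cells. The comparison therefore says little about Slc12a1 cells. Irak4 was higher in proximal cells by 0.78 ± 0.28 (adjusted p = 0.0188), a call lost without saline mouse 2 (adjusted p = 0.0669), without FMT mouse 1 (adjusted p = 0.06) and with DESeq2 (adjusted p = 0.0744). Slc15a4 differed by −0.17 ± 0.29 (adjusted p = 0.623) and Myd88 by 0.00 ± 0.22 (adjusted p = 0.991, ±2 SE from −0.44 to 0.45). These 3 values depend on the TMM scaling. In CPM, Myd88 was 10.6 in distal and 7.89 in proximal cells, higher in distal cells in 5 of 5 libraries with overlapping ranges. Slc15a4 was 9.43 and 5.44 CPM. Irak4 was 4.73 and 5.68 CPM, higher in proximal cells in 5 of 5 libraries with overlapping ranges. Here 65.7% of genes were called, 34.7% as higher and 31% as lower. Of 44 pathway genes tested, 19 were higher and 9 lower in proximal cells. Tlr12, a receptor for profilin of protozoa, had 828 UMIs in proximal and 0 in distal cells, at least 20.9-fold higher against a floor of 3 counts. Its level in proximal cells was 8.25 and 8.84 CPM in saline mice and 11.9, 13.4 and 7.31 CPM in FMT mice. The secreted nuclease Dnase1 (4.78 ± 0.17), Irf8 (4.56 ± 0.28) and Rnaseh2c (2.51 ± 0.11) were also higher, and the lysosomal nucleases Rnaset2b (−1.55 ± 0.10), Rnaset2a (−1.54 ± 0.10) and Pld3 (−1.51 ± 0.12) and the inhibitor Tnip1 (−1.51 ± 0.24) were lower.

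FMT and saline mice were then compared within each gate, with the same edgeR test. No member was called in any gate with edgeR or DESeq2. The number tested was 6 in B cells, 6 in T cells, 1 in plasmacytoid cells, 6 in Ear2 monocytes, 3 in F13a1 monocytes, 1 in C1qa macrophages, 4 in neutrophils, 6 in proximal and 4 in distal tubule cells. The share of all tested genes called by edgeR was low as well, at 0.384% in B cells, 0% in T, plasmacytoid and C1qa cells, 0.235% in Ear2 monocytes, 0.0739% in F13a1 monocytes, 0.925% in neutrophils, 0.0762% in proximal and 0.191% in distal tubule cells. At an unadjusted p under 0.05 there were 2 members in neutrophils and 0 in the other gates. Counts at this unadjusted threshold, here and elsewhere, are given without the share of all genes that reached it. They therefore do not show that the members stand out. With 2 against 3 mice, a p that missed the threshold does not show equal levels. Groups of this size also often fail to overlap by chance, and the share of all genes without overlap was not counted.

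In B cells, Tlr7 was 23.2 and 13.8 CPM in saline mice and 6.37, 14.4 and 18.7 CPM in FMT mice, and the groups overlapped. The log2 difference of FMT over saline was −0.65 ± 0.41 (edgeR adjusted p = 0.705, ±2 SE from −1.46 to 0.16). Slc15a4 was 55.9 and 58.0 CPM in saline mice and 73.3, 70.7 and 86.1 CPM in FMT mice, with no overlap, and differed by 0.38 ± 0.19 (adjusted p = 0.625). Unc93b1 (0.11 ± 0.17, adjusted p = 0.907) and Irf5 (0.18 ± 0.23, adjusted p = 0.887) overlapped between groups. Over the 6 members tested the median was 0.15, with 4 above and 2 below 0, against −0.01 over all genes.

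In T cells, Tlr7 was 7.17 and 5.04 CPM in saline mice and 1.10, 3.71 and 7.01 CPM in FMT mice, with overlap. It differed by −0.99 ± 0.65 (edgeR adjusted p = 0.927), and the other 5 members tested lay between −0.37 ± 0.34 for Unc93b1 (adjusted p = 0.931) and 0.11 ± 0.22 for Myd88 (adjusted p = 0.97). In the small gates, Unc93b1 differed by −0.41 ± 0.46 in plasmacytoid cells (adjusted p = 0.988), 0.33 ± 0.62 in C1qa macrophages (adjusted p = 0.983) and −0.24 ± 0.35 in F13a1 monocytes (adjusted p = 0.998), where Myd88 differed by 0.30 ± 0.50 (adjusted p = 0.998), and the groups overlapped in each. Slc15a4 in F13a1 monocytes was lower in FMT mice without overlap (saline mean 93.5, FMT mean 56.6 CPM, from 31 UMIs). The same held for Slc15a4 in plasmacytoid cells (145 and 38.9 CPM, from 12 UMIs) and Myd88 in C1qa macrophages (67.8 and 45.1 CPM, from 6 UMIs). These members did not pass the low count filter in those gates.

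In Ear2 monocytes, Myd88 was 93.2 and 89.2 CPM in saline mice and 145, 140 and 126 CPM in FMT mice, each above both saline mice. Its log2 difference was 0.56 ± 0.28 (edgeR adjusted p = 0.852), from a fit that left out FMT mouse 3, which had 19 cells where 20 were required. Irf5 differed by 0.36 ± 0.34 and Tlr7 by 0.27 ± 0.31 (both adjusted p = 0.983) in the same fit. Slc15a4 was higher in FMT mice without overlap (saline mean 58.8, FMT mean 101 CPM, from 163 UMIs), opposite to the small gates above. It differed by 0.28 ± 0.34 in that fit (edgeR adjusted p = 0.988). The FMT mean includes FMT mouse 3, with 154 CPM from 11 UMIs. The neutrophil panel was at 6346 CPM in these cells of saline mouse 1 and at 125 to 342 CPM in the other libraries, and its part in these values was not tested. Without saline mouse 1, Myd88 lay within the range of 0.46 to 0.61 that leaving out single libraries gave, while Irf5 fell to −0.16 and Tlr7 to −0.07.

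In neutrophils, both members with an unadjusted p under 0.05 were higher in FMT mice. Myd88, 112 and 149 CPM in saline mice and 356, 231 and 221 CPM in FMT mice, did not overlap and differed by 0.86 ± 0.26 (edgeR adjusted p = 0.173). Unc93b1, 108 and 96.9 CPM against 248, 272 and 111 CPM, differed by 0.77 ± 0.34 (adjusted p = 0.383). FMT mouse 3, with 114 neutrophils, lay close to the saline mice for Unc93b1, while FMT mice 1 and 2 had 35 and 53 neutrophils. All 4 members tested were above 0, with a median of 0.71 against −0.01 over all genes. The summed mononuclear panel in neutrophils was 4242 to 7224 CPM over the 5 libraries.

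**Figure D3:**
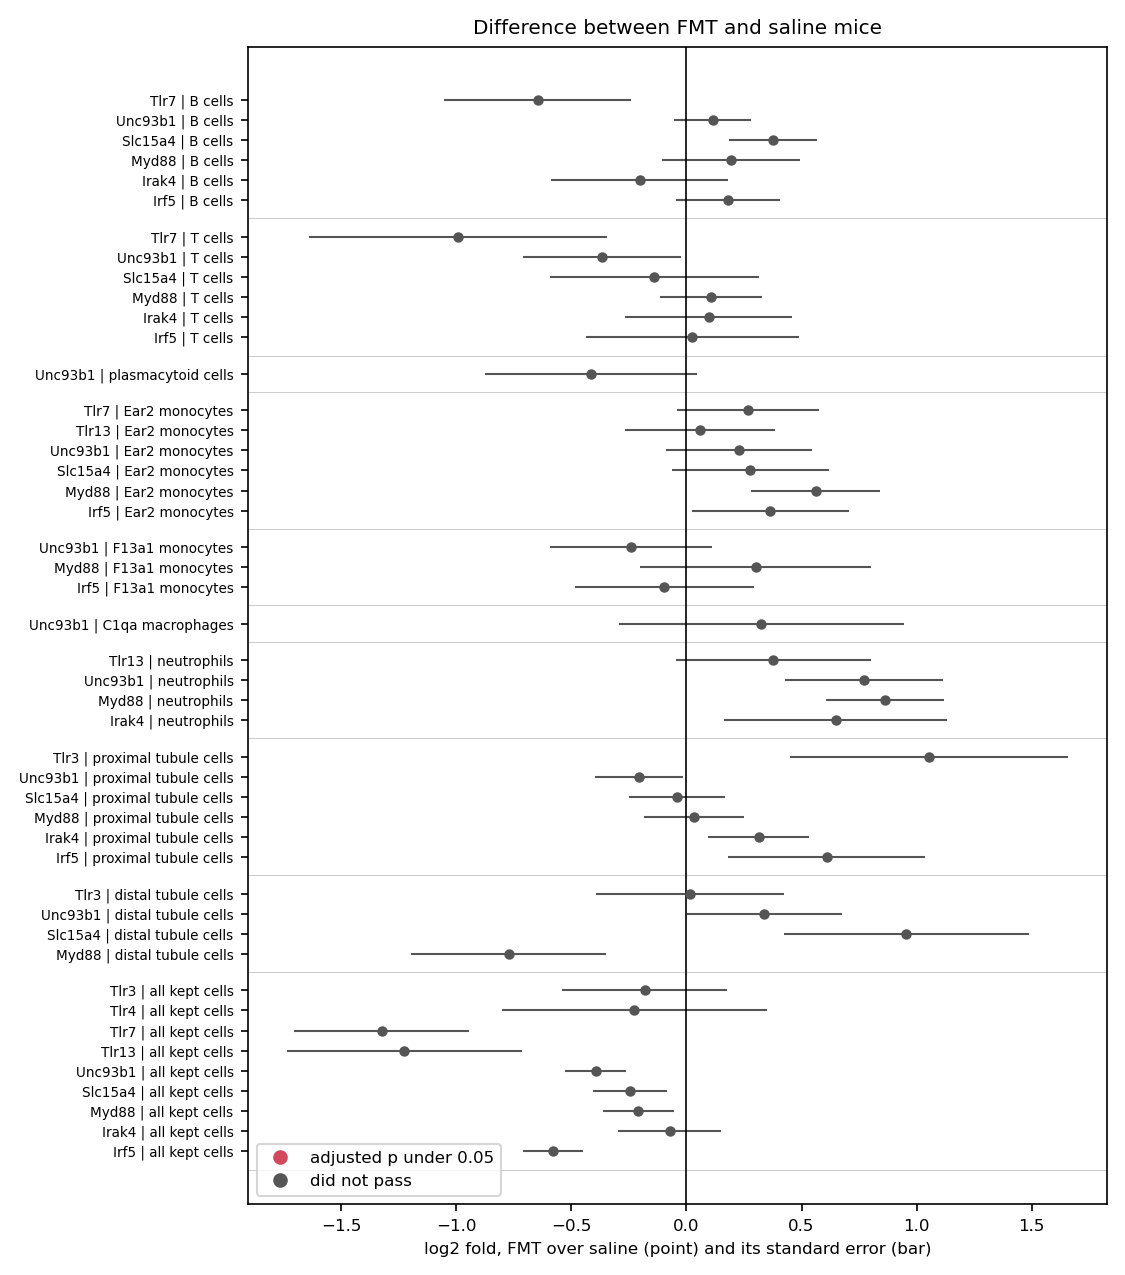
Log2 fold change of FMT over saline for each tested gene (horizontal axis, point with its standard error as a bar) in each gate and in all kept cells. No point passed an adjusted p under 0.05. Values in neutrophils lie above 0 and those in all kept cells below 0.

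In the tubule, Tlr3 differed by 1.05 ± 0.60 in proximal cells (edgeR adjusted p = 0.529) and by 0.02 ± 0.41 in distal cells (adjusted p = 1.0), with overlapping groups in both. Myd88 in distal cells was 13.1 and 15 CPM in saline mice and 7.47, 10.3 and 7.25 CPM in FMT mice, lower in 3 of 3 FMT mice, and differed by −0.77 ± 0.42 (adjusted p = 0.992). The chaperone Unc93b1 went the other way in distal cells, at 12 and 17.1 CPM in saline mice and 19.1, 17.6 and 20.3 CPM in FMT mice, without overlap (0.34 ± 0.34, adjusted p = 0.998). Slc15a4 there was 9.85 and 3.86 CPM in saline mice and 11.6, 8.79 and 13.1 CPM in FMT mice, which overlapped (0.96 ± 0.53, adjusted p = 0.992). Of the pathway list, 0 of 30 to 47 genes tested were called in the tubule gates. The nearest was Irf8 in proximal cells, at 15 and 15.9 CPM in saline mice and 25.7, 31.0 and 24.8 CPM in FMT mice, without overlap (0.82 ± 0.14, adjusted p = 0.0781).

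The rest of the pathway list was likewise not called in any gate. The genes with the smallest p were the interferon-induced factor Irf1 in B cells (1.13 ± 0.27, edgeR adjusted p = 0.109), Irf1 and Irf8 in Ear2 monocytes (1.74 ± 0.43 and 1.36 ± 0.34, both adjusted p = 0.213) and Hsp90b1 in neutrophils (−1.22 ± 0.35, adjusted p = 0.166). Whether the effect of FMT differed between gates was tested with an interaction term for Ear2 monocytes, B cells and neutrophils, each against F13a1 monocytes. These fits took libraries with at least 3 cells. The Ear2 monocytes of FMT mouse 3, left out of the fit within that gate, were therefore included. Slc15a4 had 31 UMIs in F13a1 monocytes and was not tested within that gate. With edgeR and DESeq2 alike 0 members were called, and edgeR called 0.0377%, 0.0682% and 0.12% of all genes. An unadjusted p under 0.05 was found for Slc15a4 in Ear2 monocytes (1.49 ± 0.69, edgeR adjusted p = 1.0) and Unc93b1 in neutrophils (0.94 ± 0.45, edgeR adjusted p = 0.657), and for 0 members in B cells.

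When UMIs of all kept cells of a library were summed, all 9 members tested were lower in FMT mice and 0 were called with edgeR, which called 0% of all genes. Irf5 was 23.9 and 21.7 CPM in saline mice and 13.8, 15.4 and 14.4 CPM in FMT mice, without overlap (−0.58 ± 0.13, edgeR adjusted p = 0.25). Tlr7 was 11.8 and 4.94 CPM against 2.73, 3.80 and 3.20 CPM, also without overlap (−1.32 ± 0.38, adjusted p = 0.281). Tlr13 (−1.23 ± 0.51, adjusted p = 0.354) and Unc93b1 (−0.40 ± 0.13, adjusted p = 0.3) also had an unadjusted p under 0.05, so there were 4 in all. DESeq2 called 1 member, Irf5 (−0.57, DESeq2 adjusted p = 0.0441), and without saline mouse 2 edgeR called 1, Tlr7 (−1.83, adjusted p = 0.0402). That fit rests on saline mouse 1 alone, the library with most mononuclear cells, and on the spread among the FMT mice, which the lone saline library is assumed to share. Without saline mouse 1 Tlr7 was at −0.50 and Tlr13 at −0.34. In such sums, fewer cells of a type and less RNA per cell cannot be told apart.

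Cells led by the mononuclear panel made up 15.3% and 3.79% of the kept cells of saline mice, against 3.11%, 3.36% and 2.76% for the FMT mice. With these cells left out, Irf5 differed by −0.27 ± 0.21 (edgeR adjusted p = 0.627), Tlr7 by −0.63 ± 0.36 (adjusted p = 0.517), Tlr13 by −0.27 ± 0.78 (adjusted p = 0.912) and Unc93b1 by −0.31 ± 0.14 (adjusted p = 0.441), a setting added after the data had been seen.

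**Figure D4:**
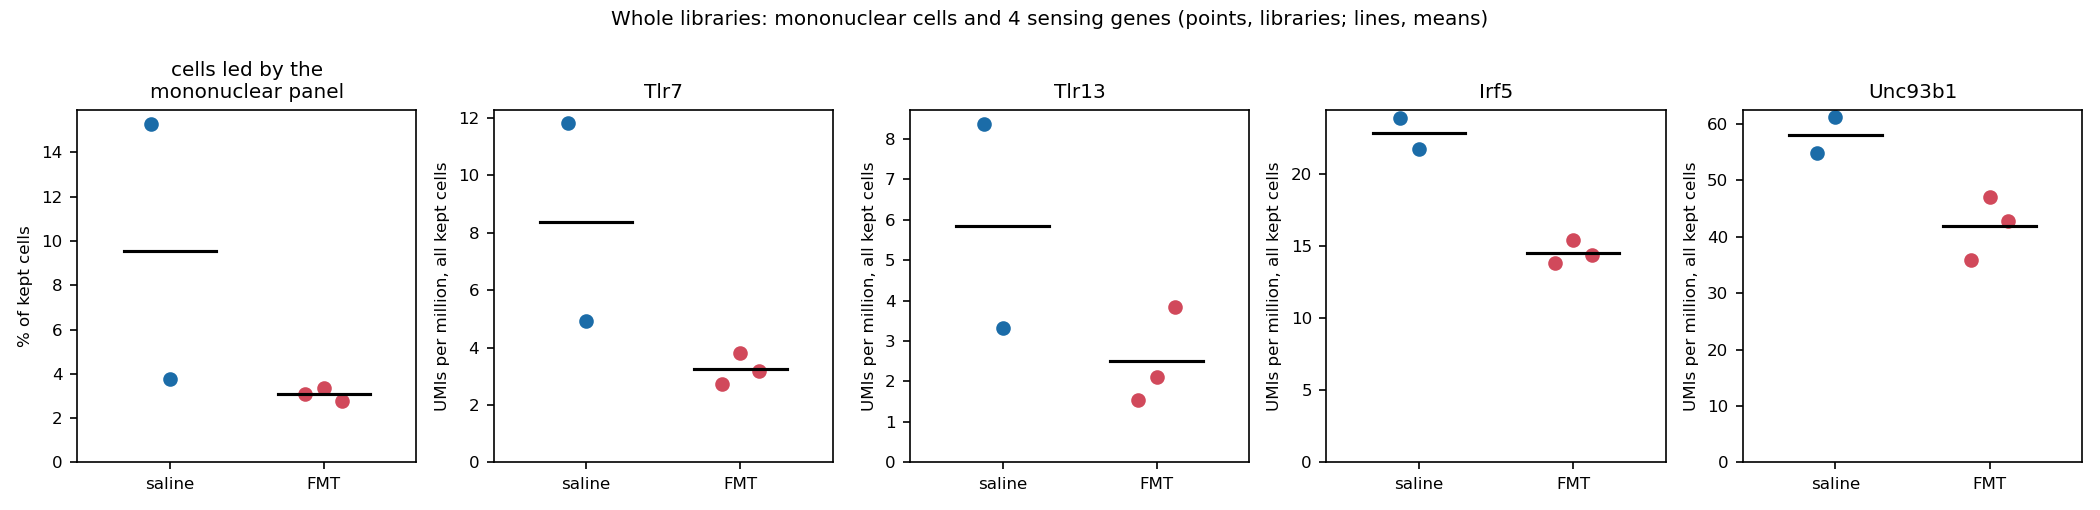
Share of kept cells led by the mononuclear panel (left, percent) and levels of Tlr7, Tlr13, Irf5 and Unc93b1 in the UMIs of all kept cells (CPM). Points are libraries and lines are group means. Saline mouse 1, at 15.3% mononuclear cells, is also the highest for Tlr7 and Tlr13, and both saline mice lie above all FMT mice for Irf5 and Unc93b1.

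The sources of each gene's UMIs show which gate weighs in such a sum. Ear2 monocytes gave 46.1% of Tlr7 UMIs in saline mouse 1, 29.6% in saline mouse 2 and 30.0%, 21.2% and 4.44% in FMT mice. For Tlr13 their share was 58.3% and 37.9% in saline mice, against 39.7%, 29.3% and 11.1% after FMT, and for Irf5 40.9% and 17.4% against 15.6%, 11.4% and 14.4%. B cells gave 34.9% of Unc93b1 UMIs over all libraries, the most of any gate in 5 of 5 libraries. Of Irf5 UMIs they gave 25.6%, the most of any gate in 4 of 5 libraries, while in saline mouse 1 they gave 15.6% and Ear2 monocytes 40.9%. Proximal tubule cells, by their number and depth, gave 39.5% of Irak4, 25.6% of Slc15a4 and 24.5% of Myd88 UMIs at a low level in CPM. Their median was 5633 UMIs per cell, against 4074 in all kept cells. Cells outside every gate gave 27.9% to 42.1% of each gene's UMIs. Among those, 28 cells led by the conventional dendritic panel held 46 Irf5 and 49 Unc93b1 UMIs.

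**Figure D5:**
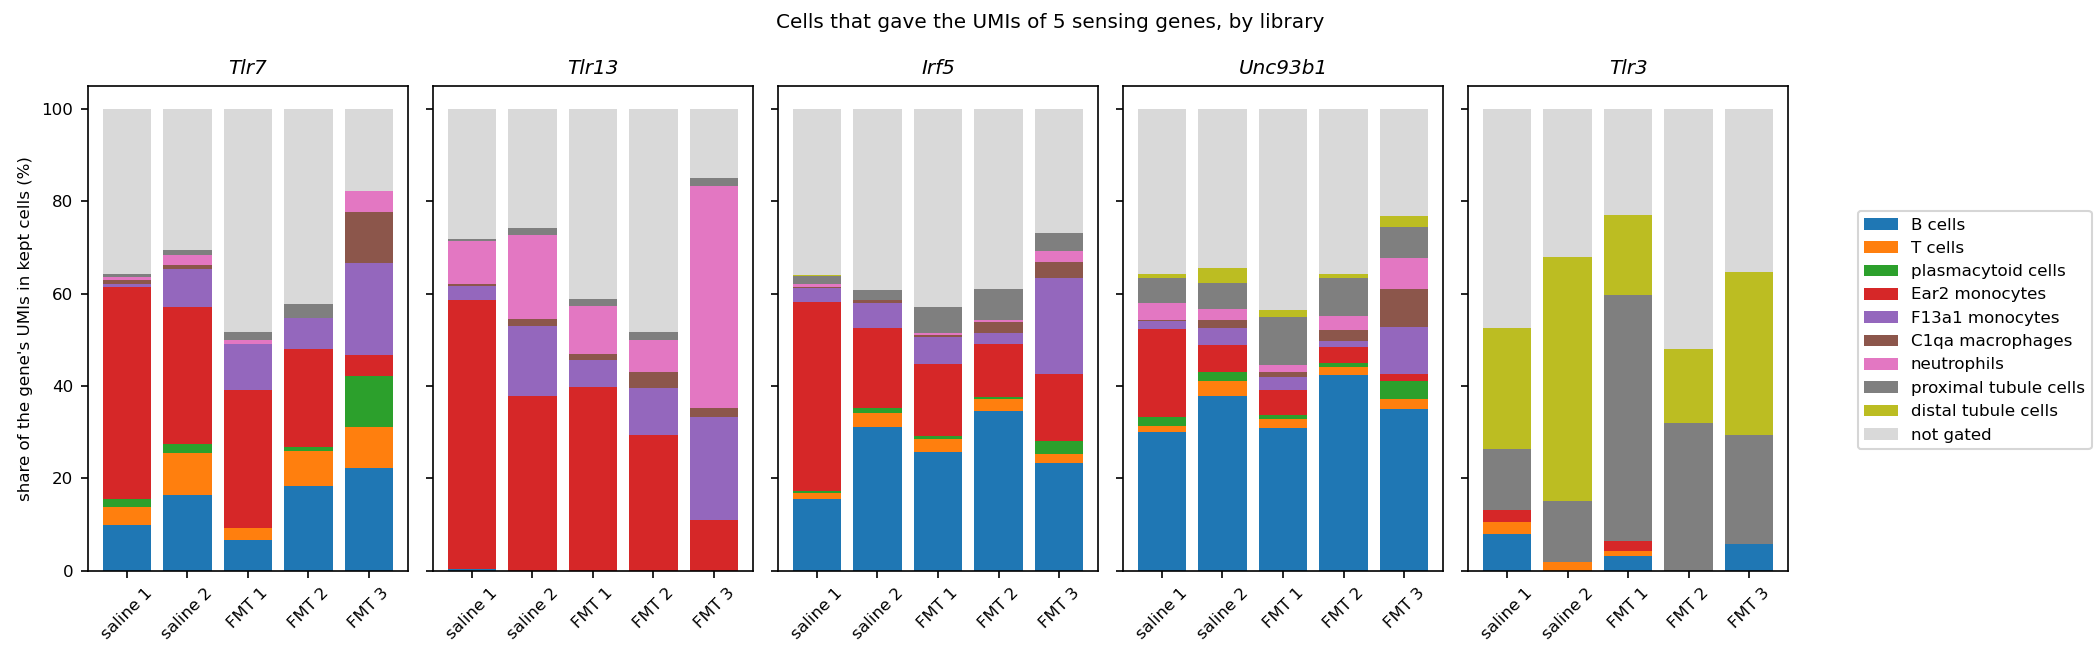
Share of each gene's UMIs in kept cells (vertical axis, percent) that came from each gate, by library (bars), for Tlr7, Tlr13, Irf5, Unc93b1 and Tlr3. Ear2 monocytes gave 58.3% of Tlr13 UMIs in saline mouse 1 and 11.1% in FMT mouse 3, and tubule cells gave most of the gated Tlr3 UMIs.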

How the data were processed

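Single-cell RNA libraries of kidney from 5 mice were used. The authors deposited raw UMI counts per gene and barcode. Cell Ranger 2.1.1 and mm10 are named in the submitters' processing notes, but cellranger 4.0.0 per the file headers, so the version is unsettled. No source used here gives a strand setting. The labels' extraction text names a bulk RNA kit beside the 10x description. The 10 genes, the marker panels and the pathway list of 65 genes were chosen with earlier results of these data known.

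From the counts as deposited, every cell was kept that had 200 genes or more and less than 50% of UMIs from mitochondrial genes. A cell was assigned to the panel with most of its 8 genes detected (at least 3, at least 2 more than any other panel) and needed 1 UMI of the gate's marker. Mononuclear cells were split by whichever of Ear2, F13a1 and C1qa had most UMIs. The 362 cells with 4 or more genes of another panel were set aside as possible doublets, without a doublet caller. Gating is by detected genes, so 947 gated cells had the smallest lead of 2, and 635 cells with a lead of 1 were not gated.

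UMIs were summed per library and gate and tested by quasi-likelihood F tests in edgeR 4.0.16 (R 4.3.3, TMM scaling, edgeR's low count filter, Benjamini-Hochberg adjustment over all genes tested). Libraries needed 20 cells, or 3 for the plasmacytoid, F13a1 and C1qa gates and for comparisons with them, set after the cell numbers were seen. The same holds for the gate means used for pattern likeness, which left out Tlr9 against the rule. SE is the log2 fold change divided by the root of F, and ±2 SE is not an exact interval. DESeq2 1.42.0, other scaling, filters, gates and libraries left out were alternatives. The tests were tested on simulated data. Python 3.11.15 with pandas 2.3.3, numpy 2.4.6 and scipy 1.17.1 was used otherwise. All 10 genes were read in each gate, and the text names those described, chosen with their values known; of the pathway list up to 4 called genes per direction by size, or those with the smallest p. The smallest chi-square per gene between libraries was 32.4, so all 5 counted as separate. The p-values rest on the spread among the libraries of a fit, which edgeR estimates with help from other genes. They are therefore not a measure of each gene's own spread alone. In comparisons of gates, the block takes out differences between mice, and the spread is that of differences within mice. The total UMI count per library sets the depth, and gene positions came from GENCODE M21.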

Additional observations from a re-analysis of the deposited data

How the results depend on the processing

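The gates rest on detected marker genes, the plasmacytoid, F13a1 and C1qa gates on 3 to 20 cells per library, and the treatment comparison on 2 against 3 mice. No call of a member within a gate between FMT and saline mice appeared under any alternative. In all kept cells 1 member was called with DESeq2 and 1 without saline mouse 2. With no filter on low counts, 6 members were called between neutrophils and F13a1 monocytes (Tlr4, Tlr7 and Slc15a4 added) and 7 between B and T cells (Tlr4, Tlr7 and Tlr9 added), Myd88 was called between C1qa macrophages and F13a1 monocytes and Irf5 between proximal and distal tubule cells, where more members were fitted. Plasmacytoid and B cells gave 1 called member with the panel alone, 1 with at least 2 UMIs of the marker, 3 without the doublet rule, and 0 to 1 when single libraries were left out. The fits as reported called 70.6% of all genes between neutrophils and F13a1 monocytes, 44.9% between B and T cells and 20.8% between plasmacytoid and B cells. Shares under the alternatives are not given, so the added calls of members are not set against all genes.

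For members that were tested in the fit as reported, there were 1126 values under alternatives. The sign changed in 89, of which 0 belonged to a called member, 4 of 151 values of called members were no longer called, and 6 values were newly called. Members not tested there gave 14 further calls, 8 of them with no filter. Leaving out a saline mouse leaves 1 saline library, assumed to vary like the FMT mice. Among the log2 values printed, leaving out single libraries gave a range of −0.06 to 0.32 for Unc93b1 and −0.15 to 0.60 for Irf5 in B cells, −0.07 to 0.47 for Tlr7 and −0.16 to 0.90 for Irf5 in Ear2 monocytes, −0.71 to 0.10 for Unc93b1 and −0.08 to 0.34 for Myd88 in T cells, −0.01 to 0.14 for Tlr3 in distal tubule cells, and for Unc93b1 −0.89 to 0.16 in plasmacytoid cells, −0.47 to 0.03 in F13a1 monocytes and −0.47 to 2.38 in C1qa macrophages. Between gates the ranges were −0.06 to 0.18 for Tlr7, −0.23 to 0.18 for Tlr13 and −0.24 to 0.26 for Irf5 between Ear2 and F13a1 monocytes, −0.36 to 0.22 for Slc15a4 and −0.16 to 0.34 for Irf5 between plasmacytoid and B cells, and −0.60 to 0.04 for Slc15a4 and −0.08 to 0.12 for Myd88 between proximal and distal tubule cells. Without the doublet rule, Tlr7 in Ear2 monocytes was −0.04 and Tlr3 in distal tubule cells −0.01, and between Ear2 and F13a1 monocytes Tlr7 was −0.11 and Tlr13 −0.03. At 2 UMIs of the marker the latter were −0.18 and −0.09. With no filter on low counts Tlr3 in distal tubule cells was −0.03 and Irf5 between the monocyte gates 0.14, and between plasmacytoid and B cells Unc93b1 was 0.06, Irf5 −0.28 and Slc15a4 −0.49. Slc15a4 there was also −0.11 at under 20% mitochondrial UMIs, −0.03 without the doublet rule, −0.03 with DESeq2 and 0.00 with its size factors. With the panel alone, Irak4 between B and T cells was 0.07 and Myd88 between proximal and distal cells −0.02, and the latter was −0.01 at 2 UMIs of the marker. The cause was not tested.

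Counts over all genes moved more. For FMT against saline they ranged over the alternatives from 9 to 203 in B cells (main 31), 0 to 90 in T cells (0), 0 to 4 in plasmacytoid cells (0), 6 to 109 in Ear2 monocytes (9), 0 to 6 in F13a1 monocytes (1), 0 to 3 in C1qa macrophages (0), 11 to 132 in neutrophils (26), 1 to 252 in proximal (9) and 3 to 73 in distal tubule cells (16), and 0 to 394 in all kept cells (0, the highest with DESeq2). Between gates the counts rose to 556 for C1qa against F13a1 (main 213), 2333 for neutrophils against F13a1 (1053) and 1231 for plasmacytoid against B cells (734) with no filter. For the interactions they ranged from 0 to 8 for Ear2 monocytes (1), 0 to 8 for B cells (4) and 1 to 15 for neutrophils (3).

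The labels do not say that replicate numbers pair mice, and the deviations of same-numbered libraries from their group means correlated at −0.361 and −0.153 in B cells, −0.199 and −0.126 in T cells and −0.343 and −0.046 in proximal tubule cells. With the replicate number as a block, 0 members were called in any gate and in all kept cells, and the count of all genes called became 18 in B cells, 13 in T cells, 47 in Ear2 monocytes, 73 in neutrophils and 52 in proximal tubule cells.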
